A study of Mus musculus with 3 samples.

Results

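The 5 genes *Ighm*, *Lmod3*, *Zan*, *Sfn* and *Hist2h2aa1*, of 32285 genes counted, were far higher in outer hair cells (OHCs) of the mouse cochlea at postnatal day 14 (P14) than at P28. They were chosen by that difference, their UMI counts in OHCs at P14 and in both P28 libraries, and their levels in OHCs at the 2 ages are a description and carry no test. All 5 symbols were present among the counted genes, each once. In OHC-like cells, *Ighm* stood at 2122 CPM (the UMIs of a gene over all UMIs of the class in that library, scaled to 1000000) at P14 and at 4.46 and 14.4 CPM in the P28 libraries. *Lmod3* was the member with the highest P28 levels, at 136 and 141 CPM after 1497 CPM at P14. *Zan*, *Sfn* and *Hist2h2aa1* stood between 111 and 159 CPM at P14 and at 5.77 CPM or less in either P28 library.

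The study followed the maturation of cochlear cells in untreated C57BL/6J mice (C57/B6 in the labels) by droplet single-cell RNA sequencing, in which the 3′ ends of polyadenylated transcripts are counted as unique molecular identifiers (UMIs). There was 1 library of P14 mice and there were 2 libraries of P28 mice, and for each one 14 cochleae of 7 mice were pooled, so that no value belongs to a single animal. The most basal part of the sensory epithelium was poorly covered, a limit of the dissection. With 1 library at P14, age cannot be told apart from whatever else differed between the preparations.

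Barcodes with 200 to 6000 genes and at most 15% mitochondrial UMIs were kept, which left 1662 of 2513 barcodes at P14, 5651 of 11948 in P28 replicate 1 and 7065 of 18196 in P28 replicate 2, with median depths of 2477, 2421 and 2037 UMIs. Clusters were named from marker genes, and the 5 members were left out of the clustering. OHC-like clusters carried all 7 OHC markers, *Ocm* (oncomodulin) and *Slc26a5* (prestin, the OHC motor protein) among them, and held 276, 365 and 284 cells with median depths of 6485, 5244 and 3752.5 UMIs. The UMIs behind the OHC levels summed to 1864643, 2469046 and 1386671. Of the barcodes kept, at most 10 were shared between any 2 libraries, and at most 1 of those was OHC-like in both. *Malat1*, a nuclear RNA, took 5.70%, 4.79% and 17.6% of the UMIs in the 3 OHC-like clusters at P14 and 1.20% in the OHC-like cluster at P28. Without the cluster at 17.6%, P14 OHC-like cells had 2093 CPM of *Ighm*, 1505 of *Lmod3*, 160 of *Zan*, 113 of *Sfn* and 151 of *Hist2h2aa1*. The clusters at 5.70% and 4.79% still lay above the P28 share, and the part of that difference in the levels below was not tested.

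OHCs are the hair cells that lengthen and shorten with sound and so amplify it. In mice, hearing begins shortly before P14. The members belong to no common pathway. *Ighm* encodes the constant region of the immunoglobulin M heavy chain and is known from B cells, where it forms a receptor together with light chains and the signalling proteins Cd79a and Cd79b. *Lmod3* encodes a leiomodin, which starts new actin filaments, binds their pointed ends and is best known from the thin filaments of skeletal muscle. *Zan* encodes zonadhesin, a sperm head protein that binds the egg coat. *Sfn* encodes 14-3-3 sigma (stratifin), an adaptor protein of epithelial cells that p53 can induce. *Hist2h2aa1* encodes a core histone H2A of the replication-dependent kind, whose transcripts mostly lack the poly(A) tail that the 3′ kit captures.

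The members lay on 5 chromosomes in GRCm38. *Ighm* (ENSMUSG00000076617) covered chr12:113418558-113422730 on the minus strand with up to 6 exons, *Lmod3* (ENSMUSG00000044086) chr6:97238534-97252759 on the minus strand with 3 exons, and *Zan* (ENSMUSG00000079173) chr5:137378637-137477064 on the minus strand with up to 88 exons. *Sfn* (ENSMUSG00000047281) at chr4:133600556-133602168 on the minus strand and *Hist2h2aa1* (ENSMUSG00000064220) at chr3:96245497-96246082 on the plus strand each had a single exon. The 3′ end of *Zan* overlapped the end of *Ephb4* on the other strand, and in OHC-like cells *Ephb4* itself had 56.3, 32.4 and 15.9 CPM. *Hist2h2aa1* overlapped the antisense gene *Gm20633*, at 2.43 CPM or less there. It also overlapped *Gm20634*, a processed transcript on the same strand that was not among the counted genes. The part of *Gm20634* in the *Hist2h2aa1* level was not tested. The 528 bases of the *Hist2h2aa2* transcript were identical to the last 528 bases of the *Hist2h2aa1* transcript, so counting could place reads of either copy on one of them or drop them, and the *Hist2h2aa1* level is uncertain to that extent.

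The 250 bases before the transcription start, shown so that the members can be compared upstream of their starts, were found in RefSeq (GRCm38.p6) for 3 of the 5 members. They are written 5′ to 3′ on the strand of the gene with the letters CCAAT, or their reverse complement ATTGG, in capitals. They lie at chr5:137477065-137477314 (minus strand) for *Zan*, chr4:133602169-133602418 (minus strand) for *Sfn* and chr3:96245247-96245496 (plus strand) for *Hist2h2aa1*.
Zan: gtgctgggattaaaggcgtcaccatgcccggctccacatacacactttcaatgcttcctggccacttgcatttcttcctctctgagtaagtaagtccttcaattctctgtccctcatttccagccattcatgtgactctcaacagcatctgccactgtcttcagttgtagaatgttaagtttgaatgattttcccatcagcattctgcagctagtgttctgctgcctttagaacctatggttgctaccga
Sfn: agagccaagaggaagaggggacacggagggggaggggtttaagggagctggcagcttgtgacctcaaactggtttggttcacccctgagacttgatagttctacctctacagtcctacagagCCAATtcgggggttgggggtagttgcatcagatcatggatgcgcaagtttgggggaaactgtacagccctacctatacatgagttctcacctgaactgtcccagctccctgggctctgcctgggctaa
Hist2h2aa1: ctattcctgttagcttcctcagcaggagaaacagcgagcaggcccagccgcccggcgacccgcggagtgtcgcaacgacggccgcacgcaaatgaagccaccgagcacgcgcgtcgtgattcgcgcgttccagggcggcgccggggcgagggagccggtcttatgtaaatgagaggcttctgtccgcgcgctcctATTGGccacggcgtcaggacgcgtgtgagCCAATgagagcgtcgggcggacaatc
The windows were searched on both strands for TATAAA, which many core promoters carry near their start. They were also searched for the CCAAT letters, which several general transcription factors bind. Further searches were for an E-box with the letters CAGCTG, read by factors of the basic helix-loop-helix family, and for the octamer known from immunoglobulin promoters, ATGCAAAT. A match only describes the letters. The *Zan* window held none of them. The *Sfn* window held CCAAT 128 bases before the start, and the *Hist2h2aa1* window held it 26 bases before the start and again, on the other strand, at 55 bases. The CCAAT letters were present in 33.8% of 32851 such windows, the TATAAA letters in 12.4%, the E-box in 13.0% and the octamer in 1.6%. Each window ended where the GENCODE gene model of the same gene begins. The G and C content was 46.0% for *Zan*, 54.4% for *Sfn* and 65.6% for *Hist2h2aa1*, against a median of 52.4% over all windows.

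In OHC-like cells, the P14 level of every member was at least 4 times that in both P28 libraries, which 27 of 1786 genes at 100 CPM or more at P14 (1.51%) showed, and this was the contrast that chose them. Among 1344 genes that reached 100 CPM in P14 OHC-like cells and were higher there than in the other P14 cells, the members ranked 1 (*Ighm*), 2 (*Zan*), 3 (*Sfn*), 5 (*Hist2h2aa1*) and 10 (*Lmod3*) by the smaller of their log2 ratios to the P28 libraries. The genes between them began with *Hsd11b1*, an enzyme that activates glucocorticoids, which went from 238 CPM to 4.05 and 5.05 CPM. *Efhd2*, at 1129 CPM and then 66.8 and 67.8 CPM, and *Ryr1*, a calcium release channel, at 119 CPM and then 4.86 and 7.93 CPM, ranked 6 and 7.

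**Figure D1:**
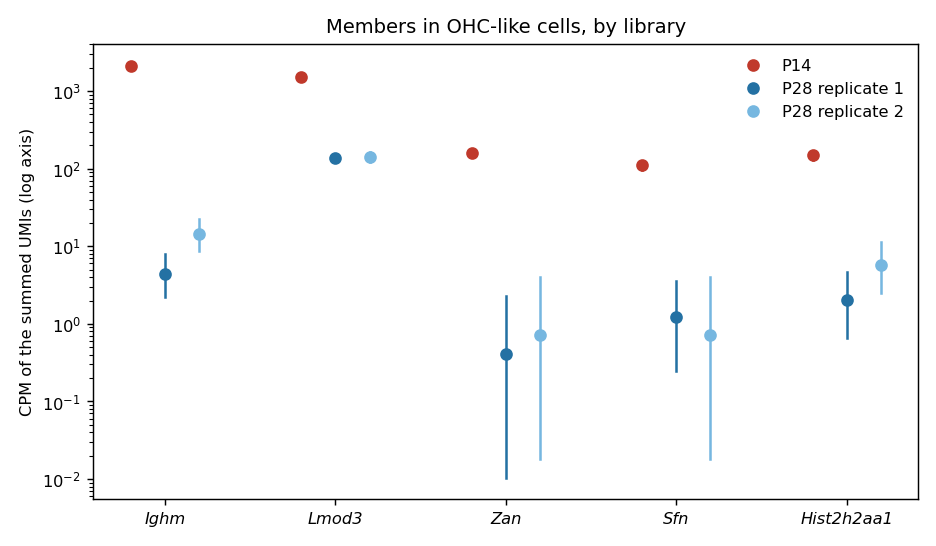
CPM of each member in OHC-like cells (log axis) in the P14 library and in P28 replicates 1 and 2, with exact Poisson 95% intervals for counting error. Every P14 point lies above both P28 points of its gene, and the P28 points of *Lmod3* alone lie above 100 CPM.

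*Ighm* gave 3957 UMIs in OHC-like cells at P14, which is 2122 CPM (exact Poisson 95% interval 2057 to 2189). At P28 it gave 11 UMIs, or 4.46 CPM (2.22 to 7.97), in replicate 1 and 20 UMIs, or 14.4 CPM (8.81 to 22.3), in replicate 2. These intervals, and all others here, cover counting error only. The P14 library was high and the intervals of the P28 libraries lay far below it, with log2 ratios, 1 CPM added, of 8.60 and 7.10. An *Ighm* UMI was seen in 79.7% of the P14 OHC-like cells, with a median of 11 UMIs per cell, quartiles of 1 and 22 and a maximum of 87. At P28 the 11 UMIs came from 4 cells and the 20 UMIs from 7 cells, which were 1.10% and 2.46% of the OHC-like cells.

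B cell genes did not accompany *Ighm* in these cells. Of 220 OHC-like cells with an *Ighm* UMI at P14, 219 had no UMI of *Igkc* (the kappa light chain), *Cd79a* or *Cd79b*, and those 3 genes gave 1 UMI in all beside the 3957 of *Ighm*, or 0.000253 per *Ighm* UMI. In B lineage-like cells of the same library they gave 1239 UMIs beside 366 of *Ighm*, or 3.39 per *Ighm* UMI. Of 26 listed immunoglobulin and B lineage genes other than *Ighm*, 23 were at 0 in P14 OHC-like cells, and the summed level of all 26 was 345 CPM, against 14379 CPM in B lineage-like cells. Of the 643 UMIs behind that sum, 641 were of *Ebf1*, a transcription factor that also gave 4072 UMIs in the non-hair cells of that library. In P28 replicate 2, by contrast, 9 of the 20 *Ighm* UMIs of OHC-like cells lay in 2 cells that also held *Igkc*, *Cd79a* or *Cd79b*, and these genes gave 22 UMIs in the class.

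**Figure D2:**
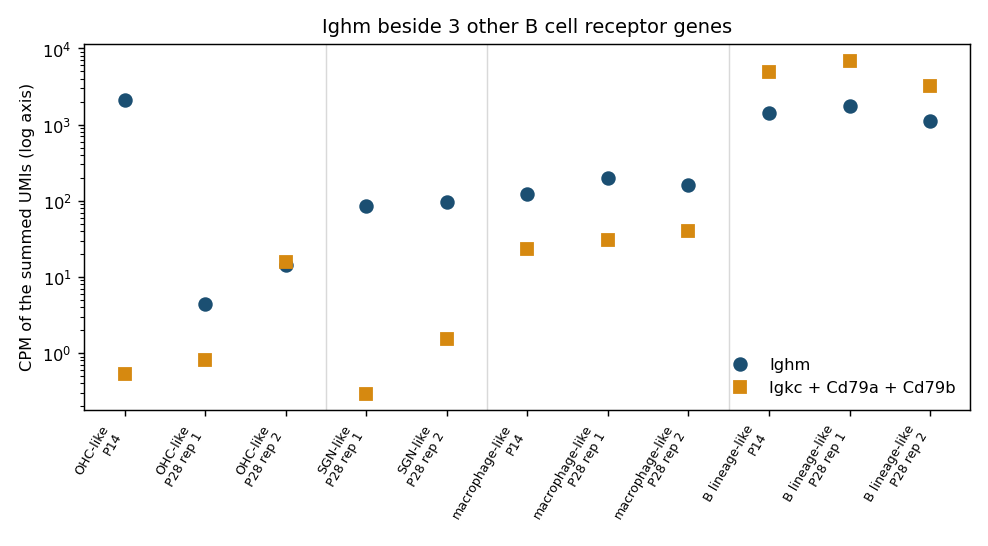
CPM (log axis) of *Ighm* (circles) and of *Igkc*, *Cd79a* and *Cd79b* together (squares) in 4 classes and each library in which the class was found. The symbols stand furthest apart in OHC-like cells at P14, at 3957 UMIs against 1, while in B lineage-like cells the squares lie above the circles in all 3 libraries.

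Outside hair cells, *Ighm* was highest in B lineage-like cells, with a P14 level of 1432 CPM and P28 levels of 1749 and 1114 CPM. The P14 value lay between the P28 values, and P14 over pooled P28 was 1.07-fold (0.914 to 1.26). P14 OHC-like cells exceeded the B lineage-like cells of their library by 1.48-fold (1.33 to 1.65). In macrophage-like cells the P14 level of 122 CPM was below the P28 levels of 202 and 160 CPM, and its interval (87.6 to 164) overlapped that of P28 replicate 2 (132 to 192). In the P28 libraries, SGN-like cells (spiral ganglion neurons by their markers) had 84.7 and 95.1 CPM. An *Ighm* UMI was found in 37.1% and 42.6% of them at median depths of 9116 and 12656.5 UMIs, and in none of these 124 and 126 cells together with *Igkc*, *Cd79a* or *Cd79b*. Thinned to 1000 UMIs per cell, 5.56% and 6.46% of SGN-like cells kept an *Ighm* UMI, against 0.551% and 0.704% of OHC-like cells. No P14 cluster was named SGN-like, so neurons could not be compared between the ages.

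The remaining classes had little *Ighm*. IHC-like cells, the inner hair cells, had 6, 1 and 0 UMIs, or 23.8, 1.03 and 0 CPM, and inner sulcus, Hensen and outer sulcus-like supporting cells had 13.6, 0.236 and 0.337 CPM. *Ocm*, which serves as a gauge of OHC RNA in other barcodes, stood in the non-hair cells of P14 at 0.483% of its OHC level. The same share of the *Ighm* level of OHC-like cells would be 10.3 CPM, and 92.0 CPM were counted, most of them in B lineage-like cells (366 of 489 UMIs).

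*Lmod3* gave 2791 UMIs in OHC-like cells at P14, which is 1497 CPM (1442 to 1553). The P28 libraries gave 335 UMIs, or 136 CPM (122 to 151), and 195 UMIs, or 141 CPM (122 to 162). The P28 libraries overlapped each other and lay below P14 by log2 ratios of 3.45 and 3.40. An *Lmod3* UMI was seen in 94.2% of the P14 cells and in 55.1% and 45.1% of the P28 cells, and the median per cell was 9, 1 and 0 UMIs. After thinning to 1000 UMIs the shares were 74.1%, 14.9% and 14.1%, against 0.991%, 0.0215% and 0.0501% of the thinned non-hair cells.

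IHC-like cells held *Lmod3* as well, and more so at P14. They had 139 UMIs, or 551 CPM (463 to 650), at P14 and 12 and 8 UMIs, or 12.4 and 13.5 CPM, at P28. The P14 cells were shallow, with 60 cells at a median of 1025.5 UMIs, yet 53.3% of them held an *Lmod3* UMI, against 10.6% and 6.58% of the P28 cells at medians of 9310 and 8007.5 UMIs. Their *Ocm* level at P14 was 151 CPM, 0.477% of the OHC level, and the same share of *Lmod3* would be 7.14 CPM. The P14 level was 43.1 times the pooled P28 level (26.8 to 72.7) in IHC-like cells and 10.9 times (9.92 to 11.97) in OHC-like cells. Within a library, OHC-like cells exceeded IHC-like cells by 2.72-fold at P14 (2.29 to 3.25), by 10.96-fold in P28 replicate 1 (6.19 to 21.4) and by 10.5-fold in P28 replicate 2 (5.20 to 24.6).

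The P28 contrasts of OHC-like cells with other cells were not those that chose the members, but they use the same P28 OHC levels. The choice favoured low levels there, opposite to the direction of the *Lmod3* differences. It also favoured high OHC levels at P14, and the p-values allow for neither. *Lmod3* was higher in OHC-like than in IHC-like cells by a log2 difference of 3.54 (SE 0.21, adjusted p = 2.28e-12, quasi-likelihood test of edgeR, Benjamini-Hochberg adjusted, 2 sums against 2). Under a filter of at most 3000 genes and 15000 UMIs per cell, the upper limits of the study itself, the difference was 2.32 (adjusted p = 0.00284, edgeR), with 7248 genes tested. Among all 9990 genes in that comparison, OHC-like cells were the higher side for 22.3% and the lower side for 24.3%. Against all other cells, *Lmod3* was higher by 7.49 (SE 0.16, adjusted p = 9.02e-09, the same edgeR test), in a comparison in which 29.1% of 15137 genes were higher and 37.5% lower. At P28, *Ighm* and *Sfn* were lower in OHC-like cells than in the sum of all other cells. The log2 differences were -1.53 (SE 0.33) and -3.09 (SE 0.62), given without a p because low P28 levels in OHCs were part of the choice. The 565 and 591 *Ighm* UMIs of the other cells lay mostly in SGN-like (290 and 308), macrophage-like (144 and 116) and B lineage-like cells (117 and 142). Not every class exceeded OHC-like cells (4.46 and 14.4 CPM): inner sulcus, Hensen and outer sulcus-like cells had 0.236 and 0.337 CPM. Without replicate 1 of the OHC-like sums the *Ighm* difference was -0.74, and without replicate 2 it was -2.42. For *Hist2h2aa1*, whose low P28 levels were likewise part of the choice, the log2 difference was 0.78 (SE 0.58). Between OHC-like and IHC-like cells, the log2 difference of *Sfn* was -3.33 (SE 0.58), again without a p. It rests on 3 and 1 UMIs in OHC-like against 11 and 8 in IHC-like sums. Under the filter of at most 3000 genes and 15000 UMIs per cell it was not fitted. *Zan* was too low at P28 to be tested in either comparison, and *Ighm* and *Hist2h2aa1* were too low for the one with IHC-like cells. The P28 libraries came from 2 separate pools of mice, and each gave 1 sum to each side. The fit behind these p-values took the sums as independent and left this pairing out. With the library added to the fit, the *Lmod3* difference was 3.53 against IHC-like cells and 7.49 against all other cells.

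Away from hair cells, *Lmod3* was scarce. Non-hair cells had 81 UMIs, or 15.2 CPM, at P14 and 9 and 8 UMIs at P28, and the *Ocm* share of P14 would give 7.23 CPM. Macrophage-like cells of P14 had 27 UMIs, or 78.2 CPM, in 3 of 74 cells, with *Ocm* at 970 CPM there, and both P28 libraries had none in 244 and 282 such cells.

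*Zan* gave 297 UMIs in OHC-like cells at P14, which is 159 CPM (142 to 178), and 1 UMI in each P28 library, which is 0.405 CPM (0.0103 to 2.26) and 0.721 CPM (0.0183 to 4.02). The log2 ratios were 6.83 and 6.54. Of the P14 OHC-like cells, 60.5% held a *Zan* UMI, at a median of 1 and at most 7 UMIs per cell. IHC-like cells held no *Zan* UMI in any library, but the 60 cells of P14 had a median of 1025.5 UMIs, and 0 of 60 allows up to 5% of cells with a UMI, which does not limit the share of cells that express the gene. Set against a floor of 3 UMIs in these cells (11.9 CPM), the OHC level of P14 was 13.4-fold higher. The lower limit of the exact 95% interval of the ratio was 10.8, and that interval covers counting error only. All other P14 cells together gave 7 UMIs, 1.26 CPM, so that OHC-like cells were higher by 127-fold (60.7 to 318). In the non-hair cells of P14, the *Zan* level was 1.71 times what the *Ocm* share would give.

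*Sfn* gave 207 UMIs at P14, which is 111 CPM (96.4 to 127), then 3 UMIs, or 1.22 CPM (0.251 to 3.55), and 1 UMI, or 0.721 CPM (0.0183 to 4.02), with log2 ratios of 5.66 and 6.02. The share of OHC-like cells with a UMI was 44.6%, 0.822% and 0.352%, and macrophage-like cells, which should lack the gene, had 1.35% at P14 at a median depth of 3801.5 UMIs. At P28 macrophage-like cells had 4.21 and 2.76 CPM (3 and 2 UMIs), so the OHC-like levels of P28 were not above theirs. Supporting cells held *Sfn* at both ages. Inner sulcus, Hensen and outer sulcus-like cells had 33.3, 24.8 and 15.2 CPM, and the P14 interval overlapped that of P28 replicate 1. Inner phalangeal and border-like cells, named only at P28, had 37.8 and 32.2 CPM, and Reissner's membrane-like cells 15.5 and 18.7 CPM. IHC-like cells had 19.8, 11.4 and 13.5 CPM. OHC-like cells thus stood above the inner sulcus, Hensen and outer sulcus-like cells by 3.33-fold at P14 (2.60 to 4.31), and at 0.0491 times (0.00996 to 0.147) and 0.0475 times (0.00118 to 0.279) their level at P28. An unnamed P14 cluster of 73 cells, led by *Fabp3*, *Tectb* and *Rbp7* and named here after its values were seen, had 105 CPM of *Sfn* (76.3 to 140) in 34.2% of its cells.

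*Hist2h2aa1* gave 276 UMIs at P14, which is 148 CPM (131 to 167), then 5 UMIs, or 2.03 CPM (0.658 to 4.73), and 8 UMIs, or 5.77 CPM (2.49 to 11.4), with log2 ratios of 5.62 and 4.46. A UMI was seen in 52.9%, 1.37% and 2.82% of the OHC-like cells. Its near-identical copy *Hist2h2aa2* had no UMI in OHC-like cells of any library. The whole *Hist2h2aa2* transcript is identical to the end of the *Hist2h2aa1* transcript, so this does not show which copy was expressed. *Hist2h2aa1* was not confined to OHCs at P14: IHC-like cells had 190 CPM (140 to 252), and the ratio of OHC-like to IHC-like cells was 0.778 (0.571 to 1.08). Erythroid-like cells had 156 CPM and B lineage-like cells 97.8 CPM. At P28 the values were lower, at 2.06 and 6.73 CPM in IHC-like and 0 and 3.68 CPM in erythroid-like cells. B lineage-like cells had 14.9 and 39.2 CPM, which rested on 1 and 5 UMIs, with intervals that overlapped that of P14. Of all genes at 100 CPM or more at P14, 17.9% were at least 4 times higher than in both P28 libraries in erythroid-like cells. That share was 1.79% in IHC-like and 2.55% in B lineage-like cells. The level over all non-hair cells was 33.7 CPM in the P14 library and 1.65 and 2.63 CPM in the P28 libraries, a pooled fold of 15.7 (12.1 to 20.5), beside 43.9 (25.3 to 83.5) in OHC-like cells.

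**Figure D3:**
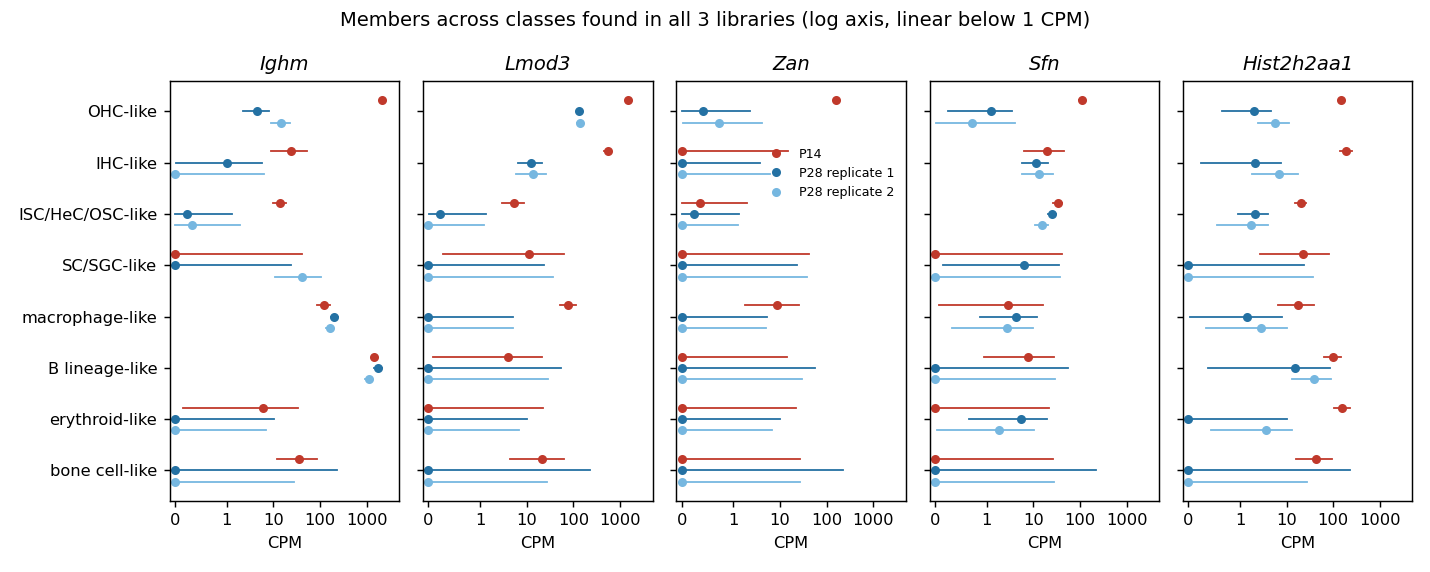
CPM of each member (log axis, linear below 1 CPM) in 8 classes found in all 3 libraries, with exact Poisson 95% intervals. *Ighm* lies above 1000 CPM in B lineage-like cells in all 3 libraries, and *Lmod3* is high in IHC-like cells too at P14. *Zan* exceeds 10 CPM in OHC-like cells of P14 alone, and *Hist2h2aa1* has its highest point at P14 in all 8 classes. In SC/SGC-like (Schwann and satellite glial), macrophage-like, B lineage-like and bone cell-like cells, however, the P14 interval of *Hist2h2aa1* overlaps a P28 interval.

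The 3 OHC-like clusters of P14 did not carry the members alike. The cluster of 197 cells had 1822 CPM of *Ighm*, 1581 of *Lmod3*, 186 of *Zan*, 148 of *Sfn* and 161 of *Hist2h2aa1*. The cluster of 47 cells, the deepest at a median of 10529 UMIs, had more *Ighm* at 2725 CPM (2589 to 2867) and less *Sfn* at 31.0 CPM (18.1 to 49.7) and *Zan* at 98.6 CPM (74.1 to 129). The cluster of 32 cells, at a median of 929.5 UMIs, had much *Malat1* and few UMIs of ribosomal proteins, as nuclei have. It had 3417 CPM of *Ighm* (2875 to 4033) with 1 UMI each of *Sfn* and *Hist2h2aa1*. At its depth even 0 UMIs would allow up to 90.0 CPM, so the levels of *Sfn* and *Hist2h2aa1* there are poorly known. The differences given here are within 1 library between clusters cut from the same cells, and they were not tested.

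Most OHC-like cells of P14 held several members at once. All 5 were detected in 45 of 276 cells (16.3%), 4 in 88 and 3 in 75, and 2 cells held none. At P28 none was detected in 158 of 365 cells (43.3%) and 148 of 284 cells (52.1%), and no cell held 3 or more. *Lmod3* was detected in 201 and 128 of the P28 cells. The members were chosen for high P14 and low P28 counts in these cells, so this contrast between the ages follows from the choice. The cells were not thinned to a common depth, and whether members were detected together more often than separately was not tested.

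**Figure D4:**
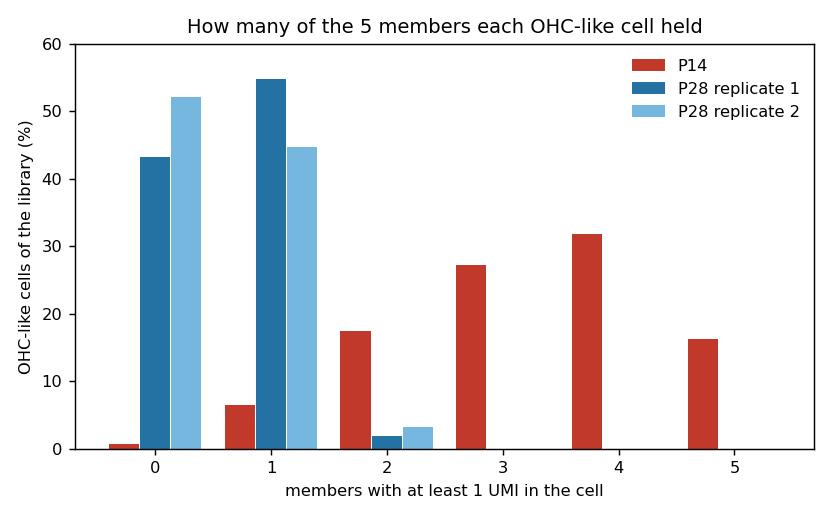
Share of the OHC-like cells of each library (%) by the number of members with at least 1 UMI in the cell. P14 cells peak at 4 members (31.9%) and P28 cells at 0 or 1, a contrast that follows from how the members were chosen.

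Related genes of each member's family were followed in OHC-like cells over 12 lists, among genes at 20 CPM or more at either age. Over all 6970 such genes, 0.933% were at least 4 times higher at P14 than in both P28 libraries and 1.99% were at least 4 times lower, and the median log2 ratio of P14 to the P28 mean was -0.08. None of the other 12 immunoglobulin chains reached 20 CPM, and of the B lineage genes only *Ebf1* did, at 344, 525 and 519 CPM. Of 8 genes of the actin pointed end and thin filament, none passed 4-fold and the median was -0.36. *Lmod1*, another leiomodin, stood at 331, 148 and 146 CPM, while the tropomodulins *Tmod1* (34.9, 72.9 and 84.4 CPM) and *Tmod2* (266, 521 and 525 CPM), which cap pointed ends, were lower at P14 and *Tmod3* (43.4, 41.7 and 31.7 CPM) was not. All 6 other 14-3-3 genes were expressed and none passed 4-fold (median -0.45). *Ywhae*, for one, stood at 329, 320 and 321 CPM.

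Beside *Hist2h2aa1*, 3 of 11 clustered histone genes were at least 4 times higher at P14, and the median of the 11 was 1.38. Named after their values were seen, they were *Hist1h4d* (83.1, 4.46 and 4.33 CPM), *Hist1h2ap* (39.1, 0 and 2.88 CPM) and *Hist1h4c* (24.1, 1.22 and 0.721 CPM). *Hist3h2ba* stood at 609, 576 and 568 CPM in the same libraries, and *Hist1h2bc* at 308, 104 and 95.9 CPM. Higher P14 levels were not confined to OHCs. The 66 clustered histone genes other than *Hist2h2aa1* summed to 1504, 1009 and 1009 CPM in OHC-like cells. They summed to 1280, 566 and 584 CPM in IHC-like cells and 16534, 1241 and 1631 CPM in B lineage-like cells. Over all non-hair cells the sums were 1923, 379 and 362 CPM. B lineage-like cells made up 83 of 1326 non-hair cells at P14 and 28 of 5173 and 56 of 6705 at P28. The part of this class mix in the non-hair sums was not tested. None of 8 separately placed histone genes, such as *H2afz* at 625, 612 and 576 CPM, passed 4-fold (median -0.02). Proliferation markers were low at both ages: only *Pcna* and *Slbp* reached 20 CPM, at 30.6, 33.2 and 31.7 CPM and 24.7, 27.1 and 33.2 CPM. No p53 target or partner of stratifin among 6 passed 4-fold (median -0.09). Of proteins with von Willebrand factor D domains, a domain of zonadhesin, *Otog* and *Otogl* were the 2 that reached 20 CPM, both lower at P14 (9.65 and 8.04 CPM) than at P28, and none of 10 other sperm and egg binding genes did.

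Few of the listed hair cell genes were at least 4 times higher at P14 than in both P28 libraries. Over all 6970 genes at 20 CPM or more at either age the share was 0.933%, so this is not particular to hair cell genes. None of 14 mature OHC genes passed 4-fold (median 0.28). *Slc26a5* stood at 2038, 532 and 653 CPM and *Ocm* at 31539, 17146 and 17484 CPM. Of 11 early hair cell genes, only *Calb1*, the calcium buffer calbindin, did so, at 352, 83.0 and 72.1 CPM (median 0.07). *Pou4f3*, a transcription factor of hair cells, stood at 1020.0, 704 and 644 CPM.

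**Figure D5:**
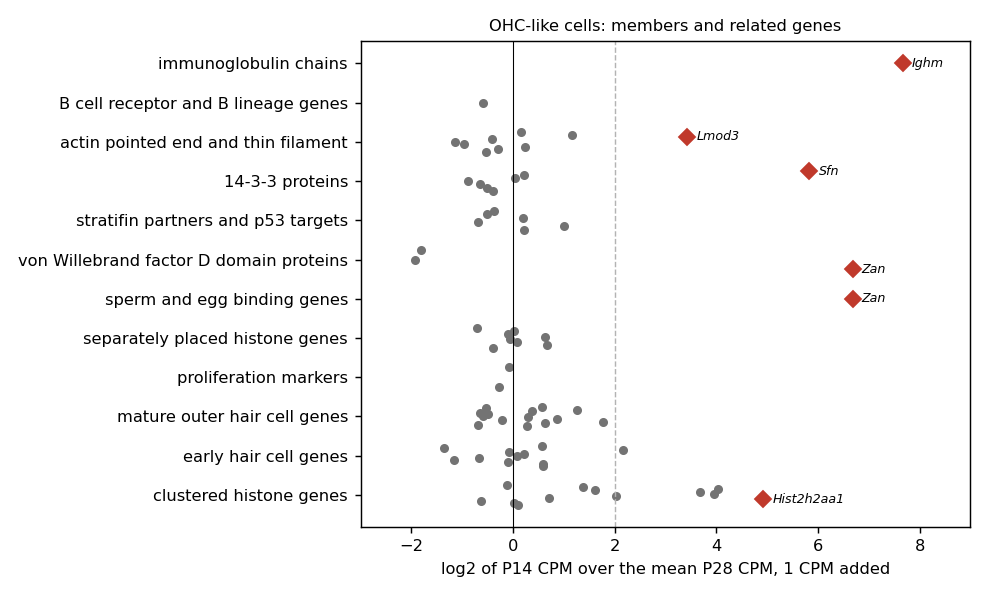
Log2 ratio of the P14 CPM to the mean P28 CPM in OHC-like cells, 1 CPM added, for the members (red diamonds) and the genes of 12 related lists at 20 CPM or more at either age (grey). The dashed line is a 4-fold difference, and all members lie to its right, beside *Calb1* and 4 clustered histone genes, of which *Hist1h4h* lies on the line.

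At P28, the same lists were set against other cells. Over all genes tested, 29.1% were higher and 37.5% lower than in all other cells, and 22.3% and 24.3% than in IHC-like cells, and the counts below are to be read against these shares. Of 13 tested genes of the actin list, OHC-like cells exceeded all other cells in 4 and lay below them in 6 (median log2 difference -1.09, and -0.16 over all genes tested). *Lmod1* was higher by 3.14 (SE 0.11, adjusted p = 3.92e-08, edgeR) and *Tmod2* by 2.48 (SE 0.10, adjusted p = 1.11e-07, edgeR), whereas *Tmod1* was lower by a log2 difference of -2.17 (SE 0.13, adjusted p = 9.21e-07, edgeR). Of the 6 other 14-3-3 genes, none was higher and 3 were lower (median -0.23). Of 21 tested clustered histone genes, 8 were higher and 2 lower (median 0.45), with *Hist3h2ba* higher by 3.80 (SE 0.13, adjusted p = 3.96e-08, edgeR). Against IHC-like cells, *Lmod1* was again higher, by 2.31 (SE 0.17, adjusted p = 5.50e-11, edgeR), whereas *Tmod2* was lower there, by a log2 difference of -0.28 (SE 0.10, adjusted p = 0.0231, edgeR). In that comparison 5 of the 6 other 14-3-3 genes were lower, while 2 of 9 genes of the actin list were higher and 5 lower.

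Across 7 classes with at least 20 cells in every library, giving 21 levels per gene, the genes most like each member were looked up among 8579 genes at 50 CPM or more in at least 1 level. The measure was Pearson's r of log2(CPM + 10). It is a description over levels that share 3 libraries and include the OHC levels that chose the members. *Ighm* was most like *Mrps30* (r = 0.853), *Birc3* (0.852) and *Gmip* (0.838). *Lmod3* was most like *Klhdc7b* (0.951), *Gm11762* (0.946) and *Gm5737* (0.932). *Zan* was most like *Ryr1* (0.927), *Hsd11b1* (0.878) and *Rasd2* (0.778). Outside OHC-like cells of P14, *Zan* was at 8.69 CPM or less in every level, so its r rests mainly on the level that chose it. *Ryr1* and *Hsd11b1* also ranked near it by the same contrast. For *Sfn* the most alike were *Actn4* (0.770), *Cldn7* (0.759) and *Acer2* (0.746), and for *Hist2h2aa1* they were *Hist1h4h* (0.846), *Ubb* (0.819) and *Cir1* (0.809). Among the members themselves, r ranged from 0.108 between *Ighm* and *Sfn* to 0.674 between *Zan* and *Sfn*.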

How the data were processed

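Raw UMI counts per gene and barcode were deposited by the authors for each library, as Cell Ranger wrote them. The file header names version 5.0.1 and the submitters' processing notes name 6.0.1 with build mm10. The members and the gene lists were chosen with earlier results of these data known. Barcodes with 200 to 6000 genes and at most 15% mitochondrial UMIs were kept, no doublet caller was run, and no doublets were removed. The study itself set upper limits of 3000 genes and 15000 UMIs per cell. P14 cells, and the P28 cells of both libraries after integration, were clustered in Seurat 5.3.0 (R 4.3.3) on 2000 variable genes with the members, the clustered histone genes and the other listed genes that are not markers left out, 30 principal components and resolution 1. A cluster was named from at least 3 detected markers. Names were rebuilt here and may differ from those of the study, and 540, 1915 and 2643 cells stayed unnamed.

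UMIs were summed per class and library and given as CPM with exact Poisson intervals. Shares of cells were also taken after thinning each cell to 1000 UMIs, which left out shallower cells. P14 and P28 were compared by values alone, since the members were chosen on them and P14 had 1 library. At P28, sums of OHC-like cells were tested against those of IHC-like and of all other cells with edgeR 4.0.16 (quasi-likelihood test, Benjamini-Hochberg adjustment, threshold 0.05), with DESeq2 1.42.0 as an alternative. The SE beside each edgeR difference is approximate: the absolute log2 difference over the square root of its F statistic. On simulated data edgeR recovered 186 of 200 genes changed 4-fold with 8 false calls among 15137 genes against all other cells, and 183 of 200 with 11 false calls among 9990 genes against IHC-like cells. The simulated sums were independent, shared the same dispersion for every gene and had few changed genes. They therefore do not give the rate of false calls in the data. Sums of the same library come from the same pool of mice, so the library pairs them. The main fit did not use this pairing. Deviations of paired sums correlated at 0.45 over 3790 genes against all other cells and at 0.041 over 3858 genes against IHC-like cells.

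Gene models were those of GENCODE M21 on GRCm38, which held 32158 of the 32285 gene IDs. Promoter windows came from RefSeq (GRCm38.p6), and only their letters before the start were used. Genes other than the members were named by a rule: those of the lists with the most UMIs in OHC-like cells or with an adjusted p under 0.05 at P28, the 3 most alike in pattern, the next 3 in rank, and neighbours or copies. Python 3.11.15 with numpy 2.4.6, scipy 1.17.1, pandas 2.3.3 and matplotlib 3.10.9 was used for the rest. Alternatives changed the cell filters, the clustering, the scaling, the filter on low counts, the test, the block and the sums included.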

Additional observations from a re-analysis of the deposited data

Results flagged for a closer look

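*Ighm* was higher at P14 than in both P28 libraries in OHC-like cells and lower than in both in macrophage-like cells. The P14 level was 264 times the pooled P28 level in OHC-like cells and 0.672 times it in macrophage-like cells (interval 0.473 to 0.934). In macrophage-like cells the P14 interval (87.6 to 164 CPM) overlapped that of P28 replicate 2 (132 to 192 CPM). The difference between these ratios was not tested. In P14 macrophage-like cells *Ocm* stood at 3.08% of its OHC level, a share that would give 65.3 of the 122 CPM of *Ighm* counted there, and its part in the ratio was not tested.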

How the results depend on the processing

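All 5 members stayed at 4 times or more each P28 library kept under each alternative run. The members were chosen on this contrast and every alternative counted the same libraries, so this outcome largely follows from the choice. With both P28 libraries kept, the smaller log2 ratio ranged from 7.00 to 7.17 for *Ighm*, 2.98 to 3.42 for *Lmod3*, 6.54 to 7.58 for *Zan*, 5.43 to 6.29 for *Sfn* and 3.71 to 4.61 for *Hist2h2aa1*. With either P28 library left out, only the ratio to the other remained. At P28, the log2 difference of *Lmod3* over the alternatives that fitted it ranged from 7.24 to 8.53 against all other cells. Against IHC-like cells it ranged from 2.32 to 3.59. These fits use the P28 OHC levels that entered the choice of the members, and their p-values do not allow for the choice. *Lmod3* was not tested against IHC-like cells when each sum had to hold at least 10 UMIs. That filter, which tests fewer genes, gave 3218 genes lower than in all other cells. Against IHC-like cells, DESeq2 called 1197 genes higher and 1560 lower, and the filter of at most 3000 genes and 15000 UMIs gave 445 and 418. The cause was not tested.

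With the library as a replicate block, 4597 genes were higher and 5756 lower than in all other cells, and 2364 and 2556 than in IHC-like cells. *Lmod3*, the only member given with a p, stayed under the threshold in both comparisons with the block. Its P28 OHC levels entered the choice, so this is no independent support. Leaving out 1 sum at a time, a choice made after seeing the data in which the lone sum is taken to vary like the pair, gave 3430 to 4185 genes higher and 4695 to 5500 lower against all other cells, and 1610 to 2125 higher and 1880 to 2289 lower against IHC-like cells. Depth limited *Zan*, *Sfn* and *Hist2h2aa1* at P28, where 1 to 8 UMIs per library stood behind the OHC levels. In 45 of 55 pairs of gene and class the order of the ages was the same at 500 and 1000 UMIs per cell, and in 0 it was opposite. Pairs in which P14 lay outside the P28 libraries at neither depth, such as classes without a UMI, counted as the same. The pairs also include OHC-like cells, unnamed cells and overlapping sets of all other cells.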
